A study of Homo sapiens with 8 samples.

Results

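The 36 genes described here encode proteins of the 3 junctions that hold epithelial cells to each other. Of these, 23 belong to the tight junction, 6 to the adherens junction and 7 to the desmosome. They were picked by name from the known parts of these junctions. Earlier results of these data were known when they were picked, so the share of them that changed is a description and not a test. All 36 were found among the 30755 gene symbols of the RNA-seq table, PATJ and AFDN under the older symbols INADL and MLLT4. The RNA came from ESO26, an established cell line of an esophageal adenocarcinoma, in a study that also held ChIP-seq of HNF4A and of Flag-tagged GATA4 and 4C libraries. In 2 libraries HNF4A, a transcription factor of liver and gut epithelium, had been knocked down with small interfering RNA (siHNF4A), and 2 libraries came from control cells. The labels used here do not say what the control cells received, how long after knockdown the cells were taken, or whether the libraries came from separate cultures, so the p-values measure only the spread between these libraries. The series' design text speaks of triplicates, whereas 2 libraries per group were analysed here. The table gives normalized counts that are not stated to be divided by gene length, and levels are therefore compared between libraries and not between genes.

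Tight junctions seal the space between neighbouring cells near their apical end. Claudins form the strands of the seal and set which ions pass, occludin and its MARVEL-domain relatives lie in the same strands, and zonula occludens (ZO) proteins and cingulins tie the strands to actin. Adherens junctions lie below them, where E-cadherin holds cells together and catenins link it to actin. Desmosomes join the keratin filaments of neighbouring cells through desmogleins, desmocollins and a plaque of plakoglobin, plakophilins and desmoplakin.

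The knockdown lowered HNF4A from 4129 and 3937 normalized counts in the control libraries to 1140 and 932 in the siHNF4A libraries, 25.7% of the control mean. Normalized counts summed to between 17912507 and 18613685 per library, and 5479 and 5640 genes were listed at 0 in the control libraries, against 4260 and 4362 after knockdown. The number of reads is unknown. Markers of epithelium and of the gut were present in every library: EPCAM lay between 25094 and 30712, KRT8 between 11889 and 17047 and VIL1 between 12202 and 13832 normalized counts. Of the squamous, fibroblast, leukocyte and endothelial markers that the table lists, summed levels were between 15.0 and 222.7 per library and list, and PTPRC was at most 2.05. TP63, COL3A1, CD3E and PECAM1 were not listed in the table used. Endothelial markers summed to 24.6 and 15.2 in the control and to 64.0 and 47.2 in the siHNF4A libraries, through VWF, and the part of other cells in the results below was not tested. In such bulk RNA, fewer cells that express a gene cannot be told apart from less RNA per cell.

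After the knockdown, 4 claudins and occludin were among the junction genes that fell. In the adherens junction and the desmosome 1 gene each changed, both upward, which was near the share of all genes that changed. Of the 36 genes, 33 averaged 10 normalized counts or more and were tested. Of these 33, 9 changed at an adjusted p under 0.05 in limma, which is 27.3%, against 14.1% of all 15577 genes tested. CLDN2, CLDN4, CLDN7, CLDN23, OCLN and PRKCI fell (6 of 33, against 8.11% of all tested genes that fell). CGN, AFDN and PKP2 rose (3 of 33, against 6.02% of all tested genes that rose). Leaving out control 2, siHNF4A 1 or siHNF4A 2 lowered the count of 9, and the number called over all genes was lower in the same fits. Between the groups the libraries did not overlap for 26 of the 33 genes, against 57% of all tested genes. After rescaling each library to the same total, 5 of the 33 fell and 4 rose, and over all genes the called genes went from 1264 lower and 938 higher to 1010 lower and 1136 higher.

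The junction types were compared by counts and medians, without a test of the types against each other. In the tight junction 7 of 20 tested genes changed, 6 of them lower, and the median log2 fold change was -0.17. In the adherens junction 1 of 6 changed, which was higher, with a median of 0.14. In the desmosome 1 of 7 changed, also higher, with a median of 0.080. The shares changed in these last 2 types, 16.7% and 14.3%, were near the 14.1% of all genes tested. The median over all genes tested was -0.0073. Of the tight junction genes 15 of 20 had a fold change below 0, against 1 of 6 in the adherens junction and 1 of 7 in the desmosome. Over all 15577 genes tested 7945 were below 0. Among the claudins 7 of 8 were below 0, with a median of -0.20. Among the other tight junction genes it was 8 of 12, with a median of -0.071. In a separate list of other junction genes, 7 of 19 tested tight junction genes were below 0 and 12 above, with a median of 0.067. Over both lists 22 of 39 tight junction genes were below 0, with a median of -0.069, against 5 of 21 in the adherens junction and 1 of 9 in the desmosome. The medians of the 20 tight junction, 6 adherens junction and 7 desmosome genes kept their signs under both scalings that were tried. The median over all 33 genes, -0.030, was 0.015 after quantile normalization, and that over all genes tested was 0.032 after rescaling to the same total.

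**Figure D1:**
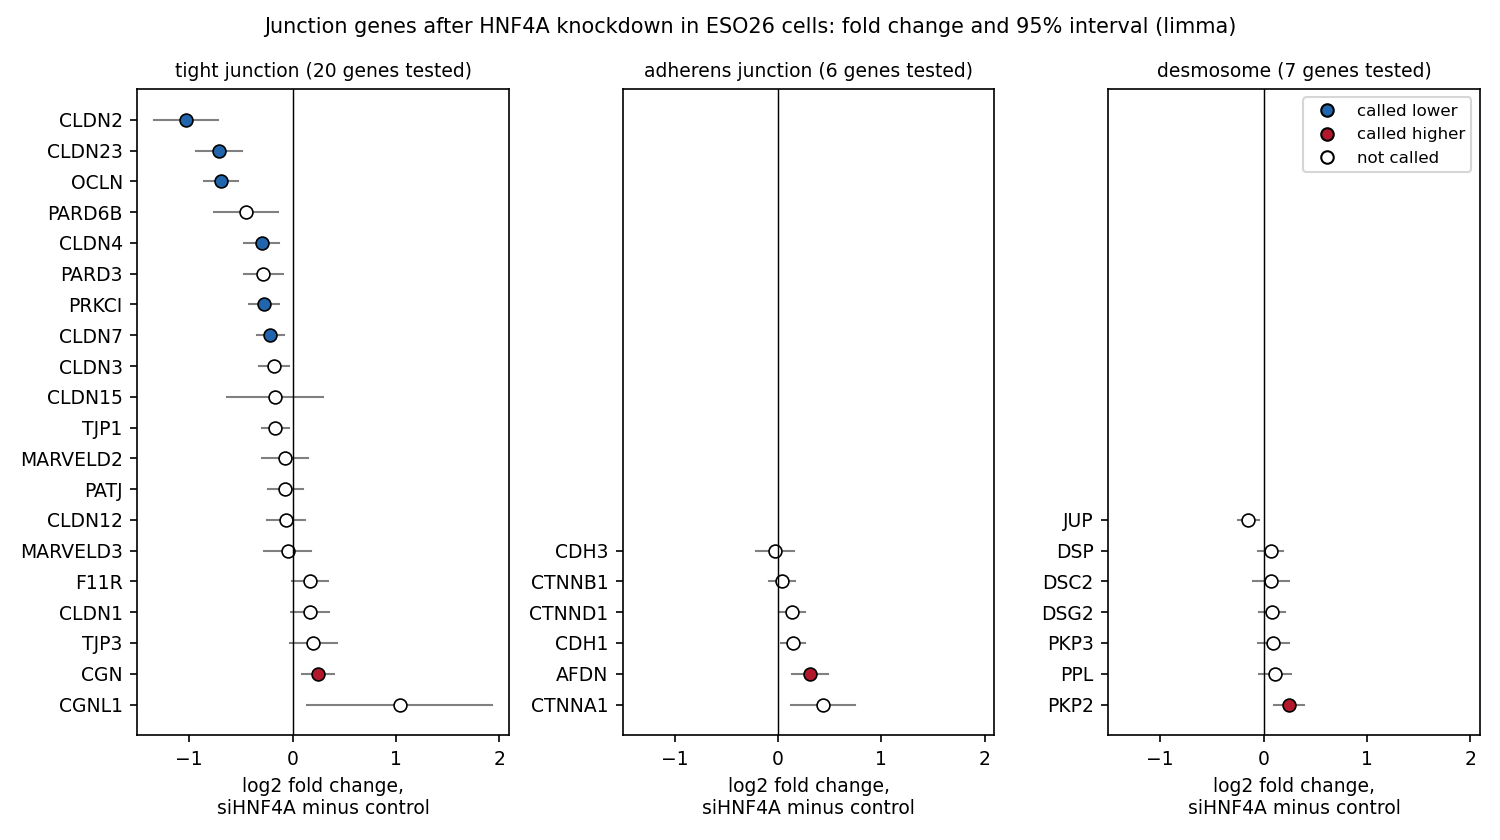
Log2 fold change (siHNF4A minus control, log2 of normalized count + 1, x axis) of the 33 tested junction genes, with the 95% interval from limma as a grey line. Filled points passed an adjusted p under 0.05 (blue lower, red higher): 6 tight junction genes lie to the left, and 1 gene of each junction type is filled on the right.

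**Figure D2:**
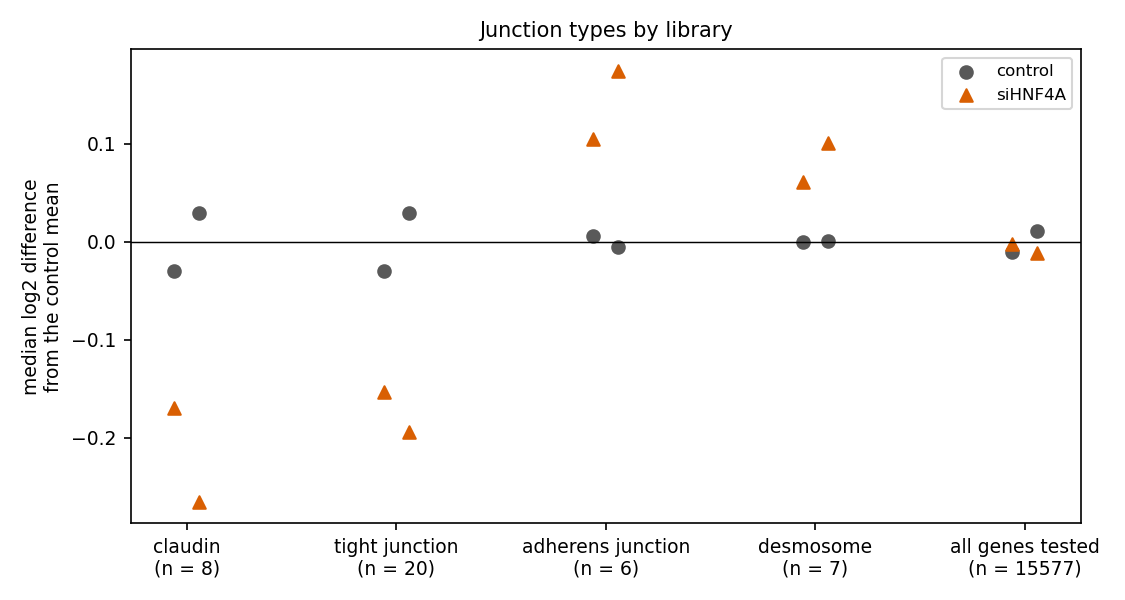
Median over the tested genes of each set of the log2 difference from the control mean (y axis), 1 point per library, the left point of a pair being replicate 1. The siHNF4A libraries lie at -0.15 and -0.19 for the tight junction, at 0.10 and 0.17 for the adherens junction and at 0.061 and 0.10 for the desmosome.

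Among the claudins, 4 of the 8 tested genes fell and none of the others passed the threshold. CLDN2, which forms a pore for cations and water, had 416 and 495 normalized counts in the control libraries and 235 and 210 in the siHNF4A libraries. The groups were well apart, and the siHNF4A mean was 48.9% of the control mean. CLDN2 fell by 1.03 on the log2 scale (SE 0.14, adjusted p = 0.0016 in limma), the largest fall among the 33 genes. CLDN2 overlaps RIPPLY1 in the RefSeq annotation, so its values are uncertain where reads were shared. CLDN23 had 688 and 694 normalized counts in the control and 418 and 425 in the siHNF4A libraries, so that each group was tight and the siHNF4A mean was 61.0% of the control mean (log2 fold change -0.71, SE 0.10, adjusted p = 0.0019 in limma).

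The barrier claudins CLDN4 and CLDN7 fell less. CLDN4 had 12212 and 14580 normalized counts in the control and 10723 and 10954 in the siHNF4A libraries. Control 2 stood above control 1 by more than the distance from control 1 to either siHNF4A library. The log2 fold change was -0.30 (SE 0.076, adjusted p = 0.028 in limma), and it was -0.17 with an adjusted p of 0.096 without control 2. CLDN7 had 5436 and 5715 in the control and 4902 and 4701 in the siHNF4A libraries, a log2 fold change of -0.22 (SE 0.060, adjusted p = 0.039 in limma). It was -0.16 after quantile normalization (adjusted p = 0.078) and -0.18 after rescaling to the same total (adjusted p = 0.064), and neither passed the threshold. CLDN7 overlaps ELP5 in the RefSeq annotation, and the sources used here do not say if reads were counted by strand.

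The other claudins did not pass the threshold. CLDN3, another barrier claudin, had 6016 and 6691 normalized counts in the control and 5725 and 5493 in the siHNF4A libraries (log2 fold change -0.18, adjusted p = 0.11 in limma). Without control 1 CLDN3 was -0.25 and passed the threshold (adjusted p = 0.021), and without control 2 it was -0.10 (adjusted p = 0.43). CLDN1 had 1489 and 1521 in the control and 1601 and 1792 in the siHNF4A libraries (0.17, adjusted p = 0.20), and it was the 1 of these 8 claudins with a fold change above 0, at 0.25 without siHNF4A 1 and 0.089 without siHNF4A 2. Of 12 further claudins 2 were tested, CLDN9 and CLDN11, with log2 fold changes of 0.013 and 0.21, and 0 were called (adjusted p of 0.98 and 0.85 in limma, groups overlapping). CLDN12 had log2 fold change -0.065 with a 95% interval from -0.25 to 0.12. CLDN15, which forms a cation pore in the intestine, had 108 and 111 in the control and 111 and 85.6 in the siHNF4A libraries, which overlapped, and the interval of its log2 fold change reached from -0.63 to 0.30. CLDN18, known from the stomach, was listed at 0 in control 1 and siHNF4A 1, at 1.23 in control 2 and at 2.24 in siHNF4A 2, and was not tested.

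**Figure D3:**
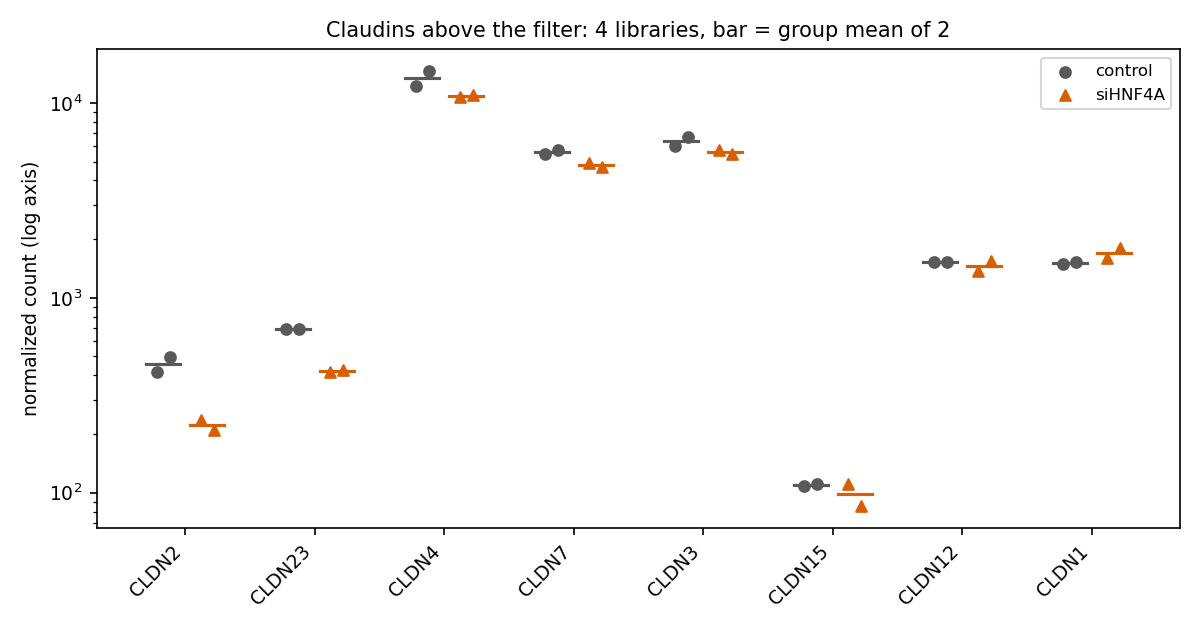
Normalized counts (y axis, log scale) of the 8 claudins above the filter in the 2 control (grey circles) and 2 siHNF4A libraries (orange triangles), with the left point of a pair being replicate 1 and bars for the group means, ordered by fold change. CLDN2 and CLDN23 on the left show the widest gaps between the groups, and CLDN1 on the right lies higher in both siHNF4A libraries.

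Of the 9 genes that changed, 7 have a listed start site, and the sequence before 1 start of each is shown. The sequences are the 250 bases before a RefSeq start site (GRCh38.p14), 5′ to 3′ on the strand of the gene. AGGTCA or its reverse complement TGACCT is in capitals. HNF4A, as a nuclear receptor family member, can bind sites built from these letters, which were picked after the counts of several motifs were seen. The CLDN2 window lies at chrX:106899914-106900163 (plus strand), CLDN4 at chr7:73830746-73830995 (plus), CLDN7 at chr17:7263214-7263463 (minus), OCLN at chr5:69492297-69492546 (plus), CGN at chr1:151511137-151511386 (plus), PRKCI at chr3:170222174-170222423 (plus) and AFDN at chr6:167827385-167827634 (plus).
CLDN2: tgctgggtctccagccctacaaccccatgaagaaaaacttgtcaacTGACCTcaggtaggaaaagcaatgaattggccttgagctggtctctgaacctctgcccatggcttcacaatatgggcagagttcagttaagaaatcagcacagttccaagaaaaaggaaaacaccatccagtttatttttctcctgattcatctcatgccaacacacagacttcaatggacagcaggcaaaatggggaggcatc
CLDN4: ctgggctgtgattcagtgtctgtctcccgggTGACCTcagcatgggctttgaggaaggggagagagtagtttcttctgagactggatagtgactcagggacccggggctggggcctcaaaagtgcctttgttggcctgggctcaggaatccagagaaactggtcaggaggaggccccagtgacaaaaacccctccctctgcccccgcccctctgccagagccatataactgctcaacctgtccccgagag
CLDN7: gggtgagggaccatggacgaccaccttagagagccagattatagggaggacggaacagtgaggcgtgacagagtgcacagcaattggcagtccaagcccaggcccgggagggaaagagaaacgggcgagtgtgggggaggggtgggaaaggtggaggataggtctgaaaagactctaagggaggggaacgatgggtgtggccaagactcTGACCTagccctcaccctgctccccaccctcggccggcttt
OCLN: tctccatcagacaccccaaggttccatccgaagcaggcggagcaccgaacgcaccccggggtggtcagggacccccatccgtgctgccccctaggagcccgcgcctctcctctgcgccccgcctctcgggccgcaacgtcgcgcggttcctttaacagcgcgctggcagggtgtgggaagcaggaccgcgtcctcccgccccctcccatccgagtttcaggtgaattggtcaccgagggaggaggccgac
CGN: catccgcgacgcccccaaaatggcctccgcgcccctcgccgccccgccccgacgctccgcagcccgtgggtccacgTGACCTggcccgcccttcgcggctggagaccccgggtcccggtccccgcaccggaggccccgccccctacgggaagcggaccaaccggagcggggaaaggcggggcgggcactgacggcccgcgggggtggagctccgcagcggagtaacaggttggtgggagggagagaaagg
PRKCI: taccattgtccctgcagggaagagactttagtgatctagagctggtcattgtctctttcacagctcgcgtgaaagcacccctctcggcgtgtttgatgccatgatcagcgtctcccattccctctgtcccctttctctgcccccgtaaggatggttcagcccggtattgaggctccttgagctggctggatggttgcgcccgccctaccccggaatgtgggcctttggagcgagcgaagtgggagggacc
AFDN: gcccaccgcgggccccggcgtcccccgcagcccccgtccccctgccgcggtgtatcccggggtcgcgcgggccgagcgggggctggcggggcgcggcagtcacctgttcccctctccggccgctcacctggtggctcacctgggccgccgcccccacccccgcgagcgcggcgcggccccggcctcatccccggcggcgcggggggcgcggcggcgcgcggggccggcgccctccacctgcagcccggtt

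The match began 204 bases before the start in CLDN2, 219 in CLDN4, 41 in CLDN7 and 174 in CGN, and the OCLN, PRKCI and AFDN windows held none. The table of start sites held 36 windows for 23 of the 36 genes. AGGTCA on either strand was in 8 of these 36 windows (22.2%), against 12.1% of all 35116 windows. By gene it was in 4 of the 7 changed genes with a window (CLDN2, CLDN4, CLDN7 and CGN) and in 2 of the 15 tested genes that were not called (DSC2 and TJP1), against 14.6% of all symbols. The second listed start of CLDN2 and that of CLDN7 also had a match. AGGTCA was singled out among 11 motifs after the counts were seen. The longer HNF4 motifs CAAAGTCCA and CAAAGTTCA were in 0 of the 36 windows (0.325% and 0.251% of all windows), and CAAAGNNCA was in 1, that of CLDN4 (4.44%).

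The remaining motifs gave these counts on either strand, all in windows of the same 250 bases. CAGGTG, the E-box letters that SNAI and ZEB repressors can bind, was in 12 of the 36 windows (17.5% of all windows). GGGCGG, the GC box, was in 25 (42.6%), CAAAG in 14 (42.1%), TATAAA in 0 (10.7%), TGANTCA in 3 (6.57%), AGATAA in 1 (9.17%) and GTTAAT in 3 (6.23%). By gene, CAAAG and CAGGTG were each in 3 of the 7 changed genes with a window and in 7 of the 15 not called. GGGCGG was in 6 and 14 of these genes, TGANTCA in 2 and 1, GTTAAT in 0 and 1, and TATAAA and AGATAA in 0 and 0. CAAAG lies within the 3 longer CAAAG motifs, so their matches overlap. A match describes letters and does not show a bound site, and peaks of HNF4A were not placed at these genes.

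Among the MARVEL-domain proteins occludin was the member that changed. OCLN, which spans the membrane within the strands, had 2494 and 2503 normalized counts in the control and 1606 and 1485 in the siHNF4A libraries. Neither siHNF4A library came near the control libraries, and the siHNF4A mean was 61.9% of the control mean. OCLN fell by 0.69 on the log2 scale (SE 0.073), and its adjusted p of 4.5e-04 in limma was the smallest among the 33 genes. MARVELD2 (tricellulin), which sits at the corners where cells meet, had 894 and 996 in the control and 844 and 954 in the siHNF4A libraries, which overlapped (log2 fold change -0.073, 95% interval -0.29 to 0.15). MARVELD3 likewise overlapped, with 551 and 591 against 565 and 542 (-0.045, interval -0.27 to 0.18). The difference between OCLN and its relatives was not tested itself, and RefSeq lists a pseudogene of OCLN, OCLNP1, so reads may have been split between them.

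The junctional adhesion molecules, immunoglobulin-type proteins of the tight junction, did not pass the threshold or were hardly detected. F11R (JAM-A) had 4977 and 5927 normalized counts in the control and 6188 and 6018 in the siHNF4A libraries (log2 fold change 0.17, adjusted p = 0.20 in limma). Without control 2 it was 0.29 with an adjusted p of 0.010, and without control 1 it was 0.042 with an adjusted p of 0.76. JAM2 lay between 3.21 and 12.5 and JAM3 between 4.83 and 11.5, below the filter. Without the filter their log2 fold changes were -1.06 and 0.55, with adjusted p of 0.39 and 0.65 in limma.

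Of the 4 scaffold genes under the strands, 1 passed the threshold. CGN (cingulin) rose from 2268 and 2238 normalized counts in the control to 2769 and 2565 in the siHNF4A libraries, a log2 fold change of 0.24 (SE 0.069, adjusted p = 0.045 in limma). This call was lost in each of the 4 fits that left out 1 library, with adjusted p from 0.059 to 0.26. Its relative CGNL1 was low, at 10.7 and 13.5 in the control and 24.9 and 26.5 in the siHNF4A libraries, and its log2 fold change of 1.04 was not past the threshold (SE 0.40, adjusted p = 0.12). TJP1 (ZO-1) had 5356 and 5189 in the control and 4743 and 4655 in the siHNF4A libraries (-0.17, adjusted p = 0.085), and TJP3 (ZO-3) had 1027 and 960 in the control and 1039 and 1257 in the siHNF4A libraries (0.20, adjusted p = 0.23). TJP3 was 0.34 without siHNF4A 1 and 0.065 without siHNF4A 2, with adjusted p of 0.10 and 0.80.

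**Figure D4:**
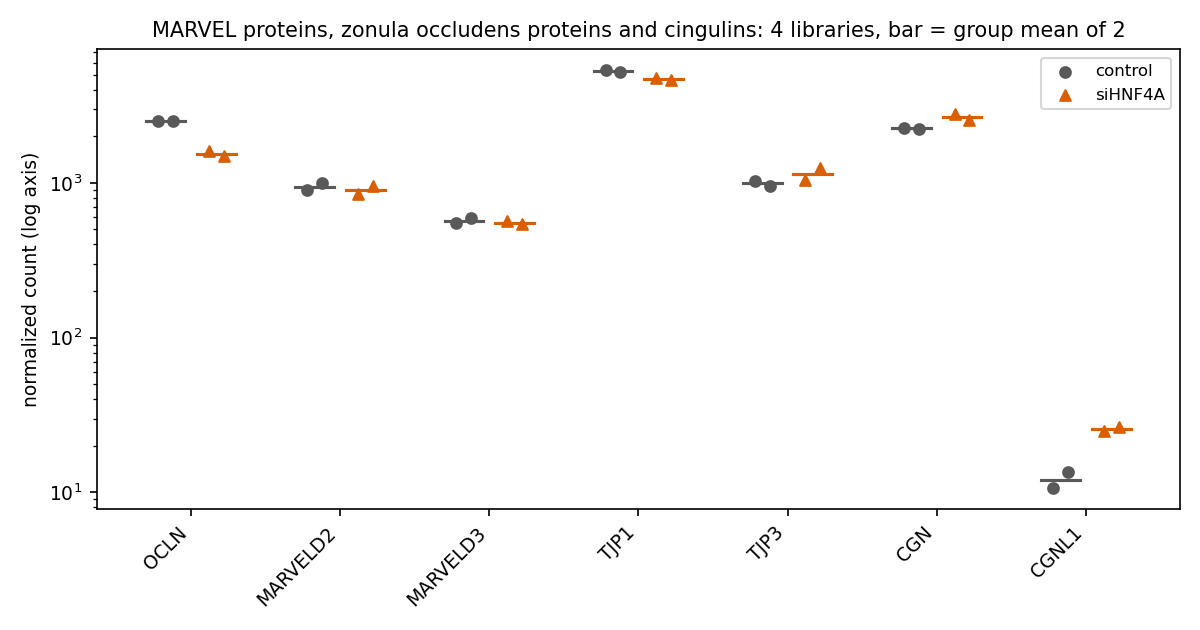
Normalized counts (y axis, log scale) of MARVEL-domain genes, ZO genes and cingulins in the 2 control (grey circles) and 2 siHNF4A libraries (orange triangles), with the left point of a pair being replicate 1 and bars for the group means. OCLN lies well below the control in both siHNF4A libraries, while MARVELD2 and MARVELD3 overlap between the groups.

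The 4 polarity genes, which position the tight junction along the cell side, had fold changes below 0 and 1 of them passed the threshold. Their relatives PARD6A and PRKCZ on the separate list were above 0, at 0.090 and 0.067, and PARD3B was below, at -0.10, with none of these called. PRKCI, the atypical protein kinase C of the PAR complex, had 2642 and 2671 normalized counts in the control and 2234 and 2156 in the siHNF4A libraries, with the groups apart. It fell by 0.28 on the log2 scale (SE 0.066, adjusted p = 0.022 in limma). Its partners in the complex came close to the threshold: PARD6B had 704 and 640 in the control and 426 and 569 in the siHNF4A libraries (-0.45, adjusted p = 0.061), and PARD3 had 1591 and 1819 against 1418 and 1381 (-0.28, adjusted p = 0.055). Both passed it with a filter at a mean of 50, with adjusted p of 0.044 and 0.038. Without siHNF4A 1 PARD6B was -0.24 (adjusted p = 0.33), while it passed the threshold without control 2 and without siHNF4A 2 (adjusted p = 0.030 and 0.021). Without control 2 PARD3 was -0.18 (adjusted p = 0.26), and without control 1 it passed (adjusted p = 0.011). PATJ, a scaffold of the Crumbs complex, overlapped between the groups (-0.069, 95% interval -0.24 to 0.098), and was 0.0062 without siHNF4A 1.

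In the adherens junction neither cadherin passed the threshold. CDH1 (E-cadherin) had 8196 and 8148 normalized counts in the control and 8940 and 9136 in the siHNF4A libraries, both above the control. Its log2 fold change of 0.15 (SE 0.052) had an adjusted p of 0.094 in limma. It passed the threshold after quantile normalization (0.23, adjusted p = 0.020) and after rescaling to the same total (0.18, adjusted p = 0.036). CDH3 (P-cadherin) had 2073 and 2384 in the control and 2238 and 2117 in the siHNF4A libraries, which overlapped (-0.030, 95% interval -0.21 to 0.15), and its sign changed with the scaling. Of 7 repressors known to act on CDH1, 4 were in the table and 2 were tested: SNAI1 lay between 44.6 and 52.5 and ZEB1 between 16.2 and 35.2 normalized counts, and neither passed the threshold.

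Of the proteins that bind the cadherin tail or the neighbouring nectins, AFDN changed. AFDN (afadin), which links nectins to actin, rose from 6633 and 5567 normalized counts in the control to 7451 and 7620 in the siHNF4A libraries (log2 fold change 0.31, SE 0.078, adjusted p = 0.028 in limma). The control libraries were further apart from each other than control 1 was from siHNF4A 1, and without control 2 the value was 0.18 with an adjusted p of 0.097. CTNND1 (p120-catenin, 11136 and 11518 against 11969 and 12896) and CTNNB1 (beta-catenin, 5047 and 4994 against 5260 and 5058) had log2 fold changes of 0.13 and 0.039 and were not called. Without siHNF4A 2 CTNND1 was 0.080, and CTNNB1 was 0.011 without siHNF4A 1 and 0.067 without siHNF4A 2. CTNNA1 (alpha-catenin), which joins beta-catenin to actin, had 266 and 223 in the control and 329 and 330 in the siHNF4A libraries (0.44, adjusted p = 0.067). It passed the threshold without control 1 (0.56, adjusted p = 0.026) and was 0.31 without control 2 (adjusted p = 0.26). CTNNA1 overlaps LRRTM2 and an antisense gene in RefSeq, so its values are uncertain where reads were shared. CTNNA2 and CTNNA3, the other alpha-catenins, were at most 14.5 and 5.01. The CTNNA1 pseudogene CTNNA1P1, listed as CTNNAP1, was between 0.898 and 6.67 normalized counts.

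In the desmosome 6 of 7 genes had a fold change above 0, and PKP2 was the member past the threshold. PKP2 (plakophilin 2) rose from 2718 and 2645 normalized counts in the control to 3248 and 3109 in the siHNF4A libraries (log2 fold change 0.24, SE 0.064, adjusted p = 0.033 in limma). PKP3 had 2545 and 2706 against 2875 and 2732 (0.095). DSP (desmoplakin), which anchors keratin filaments, had 7798 and 7805 in the control and 8017 and 8366 in the siHNF4A libraries, a log2 fold change of 0.070 with a 95% interval from -0.050 to 0.19. The desmosomal cadherins DSG2 and DSC2 had log2 fold changes of 0.080 and 0.074, with intervals from -0.044 to 0.20 and from -0.10 to 0.25. PPL (periplakin), which is also part of the cornified envelope, had 2772 and 2666 against 2837 and 3045 (0.11, adjusted p = 0.31). Without siHNF4A 2 DSP was 0.039, PPL was 0.061 and DSC2 was -0.027, and PKP3 was 0.051 without control 1 and 0.058 without siHNF4A 1.

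JUP (plakoglobin), which is shared by desmosomes and adherens junctions, was the desmosome gene with a fold change below 0. It had 77704 and 82758 normalized counts in the control and 73435 and 71520 in the siHNF4A libraries, with the groups apart. Its log2 fold change of -0.15 (SE 0.046) had an adjusted p of 0.063 in limma, which was 0.0054 after quantile normalization (-0.21) and 0.014 without control 1 (-0.19). It was 0.10 after rescaling to the same total (-0.11) and 0.25 without control 2 (-0.10).

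**Figure D5:**
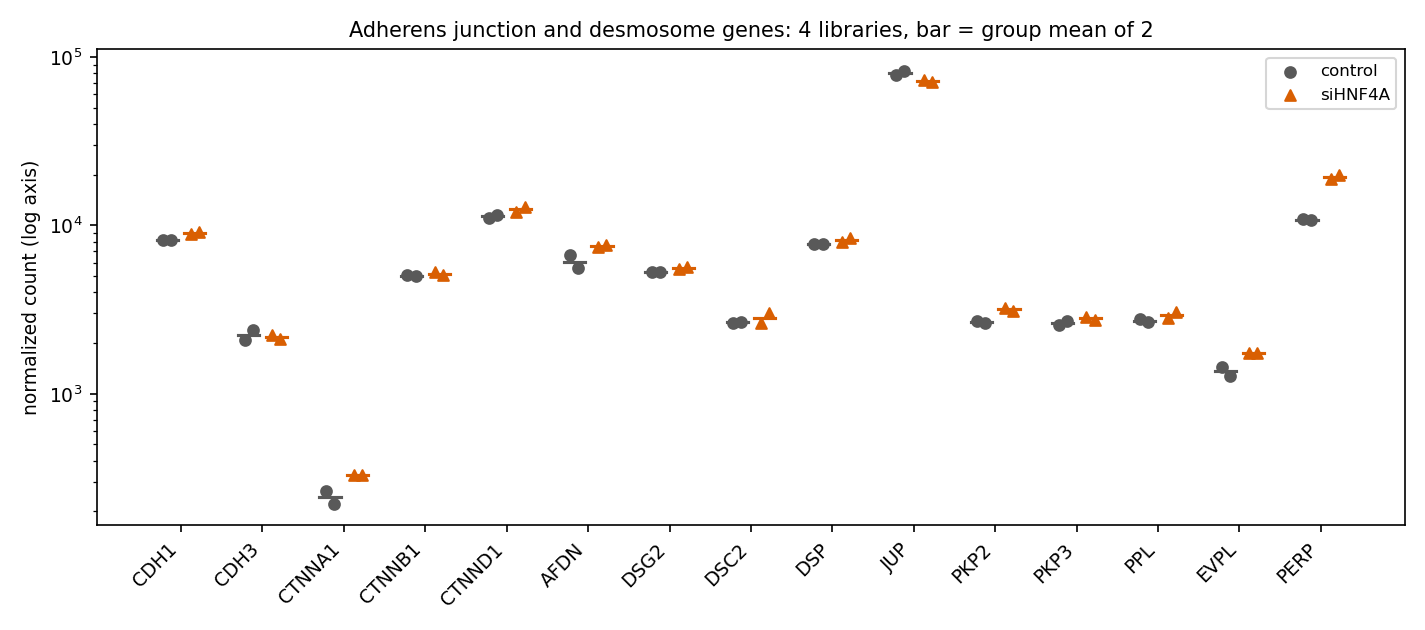
Normalized counts (y axis, log scale, not divided by gene length) of adherens junction and desmosome genes, with EVPL and PERP from the list of other junction genes, in the 2 control (grey circles) and 2 siHNF4A libraries (orange triangles), the left point of a pair being replicate 1 and bars the group means. PERP shows the widest gap between the groups.

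The separate list of 58 other junction genes, written with earlier results of these data known, held further changes in both directions. Of these genes 53 were in the table and 36 were tested, and 9 changed (25.0%, against the 14.1% of all genes), 4 lower and 5 higher, which became 3 lower and 6 higher after quantile normalization. The count was 5 without siHNF4A 1 and also 5 without siHNF4A 2. PERP, a membrane protein of desmosomes that p53 can induce, rose from 10872 and 10747 normalized counts in the control to 18957 and 19814 in the siHNF4A libraries, 179% of the control mean. Its log2 fold change was 0.84 (SE 0.050, adjusted p = 2.73e-05 in limma), and EVPL (envoplakin), the partner of PPL, rose by 0.35 (adjusted p = 0.020). With these, 3 of 9 tested desmosome genes of both lists changed (33.3%), all higher, against 14.1% of all genes that changed and 6.02% that rose. The EVPL call was lost without control 2 (0.27), without siHNF4A 1 and without siHNF4A 2, with adjusted p of 0.076, 0.083 and 0.091, and the PKP2 call was lost without the same 3 libraries. DSG1, DSG3, DSG4, DSC1, DSC3 and PKP1, which belong to squamous epithelium or hair, were at most 13.1 and were not tested.

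In the tight junction ILDR1, a protein of tricellular contacts, rose from 264 and 261 to 460 and 474 normalized counts (log2 fold change 0.83, SE 0.12, adjusted p = 0.0019 in limma). CXADR, the coxsackievirus and adenovirus receptor of the tight junction, fell from 1512 and 1487 to 1027 and 1102 (-0.49, SE 0.080, adjusted p = 0.0039). AMOTL1, an angiomotin that binds the polarity complexes, rose by 0.43 (adjusted p = 0.0070), and was at the threshold and not called without siHNF4A 1 (adjusted p = 0.050). ILDR1 overlaps CD86 and CXADR overlaps BTG3 in RefSeq. Near the adherens junction PKP4 fell by 0.30 and NECTIN2 fell by 0.34, with adjusted p of 0.027 and 0.035, while ARVCF rose by 0.41 (adjusted p = 0.038), the ninth of the list by p and named here to complete its count. NECTIN2 was not called after quantile normalization (adjusted p = 0.053), without control 2 (0.13), without siHNF4A 1 (0.053) or without siHNF4A 2 (0.20). PKP4 was not called without control 2 (adjusted p = 0.056) or without siHNF4A 2 (0.19). Over both lists 8 tight junction genes fell and 3 rose among 39 tested (28.2% changed), while in the adherens junction 2 fell and 2 rose among 21 (19.0%). Of all genes tested 14.1% changed, 8.11% falling and 6.02% rising.

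How far the calls rest on single libraries differed between the genes. CLDN2, CLDN23 and OCLN were called in each of the 4 fits that left out 1 library, with adjusted p of at most 0.013 in limma, and PERP, ILDR1 and CXADR were called in each of these fits too. EVPL, NECTIN2, PKP4 and AMOTL1 each lost the call in 1 or more of them, and ARVCF was not followed in these fits. The other 6 changed genes of the 33 were not called in each of these fits. CLDN4, CLDN7, PRKCI, AFDN and PKP2 each missed the threshold without control 2, without siHNF4A 1 and without siHNF4A 2, and CGN without any library. With 2 libraries against 2, no single gene can reach a two-sided exact permutation p below 0.333, so each adjusted p depends on the variances that the model shares across genes.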

How the data were processed

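RNA-seq libraries of ESO26 cells (2 siHNF4A, 2 control) were assigned to groups by title. The authors deposited 1 table of normalized counts, a signal value per gene symbol. The submitters' processing notes list Trim Galore, Bowtie, Bowtie2, Picard, MACS2 and hg19 without roles. The counter, annotation and normalization method are not given in the sources used here. The ChIP-seq peak lists are on hg19 and were not used, as the gene tables at hand are on GRCh38.p14. The 4C libraries were not analysed here.

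Genes that averaged 10 normalized counts or more (15577 of 30755) were fitted with limma 3.58.1 in R 4.3.3 (lmFit, eBayes with trend) on log2(normalized count + 1), which understates changes of low genes. The script was tested on simulated data. P-values were adjusted over all tested genes (Benjamini-Hochberg), and genes under 0.05 were called. The junction genes and lists were chosen with earlier results of these data known. Named are HNF4A, all 36 junction genes and the 8 called genes of the other list with the smallest p, of which 1 is counted but not reported here by name. Start-site sequences and overlapping genes come from RefSeq. Of the 36 genes, 6 overlap another protein-coding gene and 7 have a pseudogene named after them, so their values are uncertain where reads were shared. Alternatives were pseudocounts of 0.5 and 10, filters, scalings, the variance model, a replicate block and leaving out each library.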

Additional observations from a re-analysis of the deposited data

How the results depend on the processing

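The count of 9 changed junction genes was between 9 and 11 with either other pseudocount, the filter at a mean of 50, either scaling, the replicate block and the robust variance, which was chosen after seeing the data. It was 3 of 36 without the filter, where 726 of the 30247 genes tested were called. It was 0 without the variance trend, where 0 genes of all 15577 were called. Of these, 3524 (7 of the 33) had an unadjusted p under 0.05 in limma. Across the fits that left out 1 library it was between 3 and 12 (3 without siHNF4A 1, 4 without siHNF4A 2, 5 without control 2). The count of 9 other junction genes was 5 without the filter, 0 without the trend (9 with an unadjusted p under 0.05) and between 5 and 10 with 1 library left out. The log2 fold change of HNF4A, -1.97, was not past the threshold without the trend (adjusted p = 0.0919 in limma). The cause was not tested.

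The median over the 33 genes was 0.015 after quantile normalization and 0.0086 after rescaling to the same total. It was between -0.064 and 0.031 with 1 library left out, so it has no stable sign. Without the filter the median was taken over all 36 genes and was 0.0043. The desmosome median was 0.14 after quantile normalization and 0.12 after rescaling. The tight junction, adherens junction and claudin medians kept their signs in each alternative. CDH3 was 0.015 and 0.0086 after these scalings. With 1 library left out CDH3 lay between -0.13 and 0.071, CLDN12 between -0.15 and 0.023, CLDN15 between -0.35 and 0.015, MARVELD2 between -0.16 and 0.015, MARVELD3 between -0.095 and 0.0059, PATJ between -0.14 and 0.0062 and DSC2 between -0.027 and 0.17. None of these 7 genes was called in any setting that was run.

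The deviations of same-numbered libraries from their group means had a correlation of -0.0192 across 15577 genes, and the replicate numbers were therefore not used as a pairing. With the replicate block 11 junction genes were called, PARD3 and PARD6B in addition (adjusted p = 0.045 and 0.031), and 9 other junction genes. The depth is unknown, and genes that averaged less than 10 normalized counts were left out of the tests.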

Other observations

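The keratins to which desmosomes attach moved in different directions. KRT8 and KRT18, the keratin pair of simple epithelia, were lower in both siHNF4A libraries: KRT8 had 15550 and 17047 normalized counts in the control and 11889 and 12352 after knockdown, and KRT18 had 5981 and 6333 against 4357 and 4296. Their log2 fold changes were -0.43 and -0.51, with adjusted p of 0.0016 and 7.2e-04 in limma. KRT19 was higher, with 15444 and 16367 against 18881 and 18220 (0.22, adjusted p = 0.019). EPCAM, an adhesion protein that binds CLDN7, was lower at 30669 and 30712 against 25123 and 25094 (-0.29, adjusted p = 0.0029), while CDH17, a cadherin of the intestine, was higher (0.20, adjusted p = 0.026).

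VWF had 8.55 and 6.68 normalized counts in the control and 47.5 and 36.4 after knockdown, and KRT14 had 0.637 and 2.29 against 12.2 and 25.7. Both passed the filter only through the siHNF4A libraries, so no p-value is given for them. The other squamous markers in the table went the other way. KRT5 had 32.6 and 12.1 in the control against 6.14 and 10.5 and was not called, and KRT13 had 1.05 and 0.640 against 0 and 0. CDH5, the other endothelial marker in the table, overlapped between the groups.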
